A study of Mus musculus with 36 samples.

Results

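Distal active enhancers of the mouse hippocampus were followed here through their content of the histone variant H2A.Z. They are regions away from gene starts that the authors' peak table places on H3K4me1 and on H3K27ac. Members were taken from the 20213 consensus H2A.Z peaks of that table. A member lay more than 1000 bp from the nearest RefSeq protein-coding gene start, overlapped a region of H3K4me1 and a region of H3K27ac, overlapped neither H3K4me3 nor H3K27me3, and carried no entry in the table's mappability column. Of 8009 peaks beyond that distance, 4854 overlapped H3K4me1, 1948 of those H3K27ac, 488 of those no H3K4me3 and 393 of those no H3K27me3, and 392 were left after the mappability condition. H2A.Z values did not enter these conditions, beyond the calling of the peaks themselves.

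The samples were C57BL/6J mice with no transgene named in the labels, in the groups old conditioned, old naive, young conditioned and young naive. Old mice were 15.5 months of age and young mice 2.5 months. Conditioned mice went through a 5 min session of fear conditioning with 3 foot shocks of 0.5 mA and 2 s, and their brains were frozen 30 min after training, whereas naive mice were not trained. H2A.Z was mapped by chromatin immunoprecipitation with sequencing and RNA was counted in whole hippocampus, with 3 libraries per group and assay. H2A.Z is available as 1 authors' value per group and peak, and RNA as a count per library. In such bulk tissue, fewer cells of a type and less H2A.Z or RNA per cell cannot be told apart.

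H2A.Z replaces canonical H2A in nucleosomes that flank gene starts and enhancers, where it is installed by dedicated remodelling complexes and can be evicted again. In the mouse hippocampus it is known as a variant that restrains memory formation and is lost from chromatin after learning. H3K4me1 marks enhancers whether poised or in use, H3K27ac marks the ones in use, H3K4me3 marks gene starts and H3K27me3 is the mark of Polycomb repression. These marks are annotation columns of the authors' table, and the sources used here do not say in which tissue they were mapped, so "active" refers to that annotation and not to a measurement in these mice. Each nearest H3K27ac and H3K4me3 region in the table was close to 1000 bp long, so their edges are not measured edges.

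The sequences at hand bear on the "distal" label. No genome of the build was given, and RefSeq windows (GRCm38.p6, the build mm10) from 250 bases before to 50 after an annotated gene start were the only sequence that could be laid on the peaks. Such a window overlapped 32 of the 392 enhancers. There were 33 windows, 13 of protein-coding genes and 20 of long noncoding RNA genes, and 14 lay wholly inside a peak. The windows shown are 2 from enhancers among the 5 with the highest H2A.Z level and 3 from enhancers that lost H2A.Z in young conditioned mice. Capitals mark CpG dinucleotides, the targets of DNA methylation.
Brd2 start in the enhancer at chr17:34118619-34121118, minus strand: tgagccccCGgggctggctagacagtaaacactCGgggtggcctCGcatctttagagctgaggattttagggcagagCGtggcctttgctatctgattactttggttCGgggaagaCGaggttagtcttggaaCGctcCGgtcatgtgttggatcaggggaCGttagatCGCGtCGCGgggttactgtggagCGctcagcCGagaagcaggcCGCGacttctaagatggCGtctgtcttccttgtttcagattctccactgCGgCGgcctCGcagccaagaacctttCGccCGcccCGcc
Arid1a start in the enhancer at chr4:133756395-133757838, minus strand: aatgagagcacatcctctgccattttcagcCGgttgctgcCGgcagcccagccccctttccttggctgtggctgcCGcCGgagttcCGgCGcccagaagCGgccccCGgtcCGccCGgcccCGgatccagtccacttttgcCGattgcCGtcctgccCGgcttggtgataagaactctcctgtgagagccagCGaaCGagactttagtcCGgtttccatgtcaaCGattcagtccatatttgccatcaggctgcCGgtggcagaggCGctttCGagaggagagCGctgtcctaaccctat
Gm30539 start in the enhancer at chr10:126957725-126958078, plus strand: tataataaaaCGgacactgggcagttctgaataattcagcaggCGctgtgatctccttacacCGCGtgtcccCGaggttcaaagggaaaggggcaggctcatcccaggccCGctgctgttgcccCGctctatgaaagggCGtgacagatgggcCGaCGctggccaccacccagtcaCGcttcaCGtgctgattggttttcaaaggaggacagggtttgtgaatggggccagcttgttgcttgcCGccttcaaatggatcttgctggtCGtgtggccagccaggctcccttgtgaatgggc
1700030A11Rik start in the enhancer at chr17:28904589-28905758, plus strand: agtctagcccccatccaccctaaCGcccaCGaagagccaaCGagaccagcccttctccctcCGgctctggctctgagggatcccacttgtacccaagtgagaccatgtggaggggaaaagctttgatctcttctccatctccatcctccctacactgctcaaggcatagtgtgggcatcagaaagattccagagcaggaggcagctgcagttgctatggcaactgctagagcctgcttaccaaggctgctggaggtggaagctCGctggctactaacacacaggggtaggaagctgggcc
Gm34323 start in the enhancer at chr9:120602199-120603898, plus strand: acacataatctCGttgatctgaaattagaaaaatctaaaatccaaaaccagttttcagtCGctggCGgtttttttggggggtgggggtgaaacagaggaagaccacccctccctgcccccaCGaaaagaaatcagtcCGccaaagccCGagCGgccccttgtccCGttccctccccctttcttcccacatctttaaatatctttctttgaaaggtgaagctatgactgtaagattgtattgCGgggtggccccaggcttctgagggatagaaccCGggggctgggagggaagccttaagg

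The first pair comes from genes whose nearest listed start was 1.88 kb (Brd2, an acetyl-lysine reader of the BET family) and 3.5 kb (Arid1a, a subunit of the BAF remodelling complex) from the peak. In both, RefSeq places another start of the same gene inside the enhancer, so the peaks are distal to the start used by the authors' table and not to every annotated start. The Brd2 window holds 24 CpG and the Arid1a window 22, and the windows of the noncoding RNAs Gm30539, 1700030A11Rik and Gm34323 hold 14, 5 and 10. The median was 8 CpG over the 33 windows and 7 over all 32851 windows of the same length, and the median GC content was 58.0% against 52.7%. Motifs were searched on both strands. The AP-1 motif TGANTCA and the full CRE, TGACGTCA, occurred in 0 of the 33 windows, against 7.81% and 1.79% of all windows. The shorter CRE core TGACG occurred in 2 windows, against 20.8% of all windows, and any full CRE also holds it. The E-box CACGTG occurred in 3, among them the Gm30539 window, against 7.15% of all windows.

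H2A.Z loss at enhancers over a start window was close to that at the others. The authors' table called 6 of these 32 lower in young conditioned mice, which is 18.8%, and their median log2 fold of training was -0.62 in old and -1.09 in young mice. The enhancers without a window had medians of -0.68 and -1.05. The Gm30539 enhancer had H2A.Z levels of 3.67 in old conditioned, 4.50 in old naive, 1.60 in young conditioned and 4.36 in young naive mice, all on the log2 scale of the authors' table. Its log2 fold of conditioned over naive was -0.61 in old mice (FDR 0.708) and -2.76 in young mice (FDR 0.0316). The young conditioned group was the low one. The 1700030A11Rik enhancer fell by 2.09 in young mice (FDR 0.0138) and the Gm34323 enhancer fell by 2.00 (FDR 0.0427), and their old mice had folds of -1.18 and -1.10 that were not called.

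The enhancers were shorter than peaks in general. Their median width was 560.5 bp, from 264 to 2499 bp, against 886 bp for all consensus peaks, 528 bp for distal peaks with H3K4me1 alone and 738 bp for distal peaks without any of the 4 marks. Their distance from the nearest gene start had a median of 31.2 kb and ran from 1.03 to 683 kb. By the table's annotation 175 were intergenic, 137 intronic, 44 in coding exons, 14 in noncoding RNA genes, 17 just upstream or downstream of a gene and 5 in untranslated regions. Intergenic and intronic positions made up 44.6% and 35.0% of the enhancers, against 19.2% and 7.50% of all peaks. The H3K4me1 region covered the whole peak at 350 of the 392 enhancers and the H3K27ac region at 201. The nearest H3K4me3 region lay a median 16120 bp away, and for 38 enhancers it lay within 1000 bp.

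The median H2A.Z level of the 392 enhancers was 4.42 in old conditioned, 5.23 in old naive, 3.86 in young conditioned and 4.91 in young naive mice, in log2 units. All consensus peaks had medians of 5.65, 6.90, 5.46 and 6.25 in the same order. At both ages the conditioned group was the lower one. Levels of the old groups stand on another scale than the folds: the fold of training in old mice exceeds the difference of the levels by a constant 0.22, and the folds of age differ from it by -0.12 in conditioned and -0.33 in naive mice, whereas in young mice the 2 match. Sizes of differences between groups below are therefore taken from the authors' folds. Where groups of different age are ranked by level, the listed levels are used and these offsets are not removed.

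Most enhancers were called as a peak in some libraries and not in others. Each consensus peak was called in at least 4 of the 12 libraries. Among the enhancers, 154 (39.3%) were called in just 4, against 13.2% of all peaks, and 12 (3.06%) in all 12, against 26.9%. In the young conditioned group 140 enhancers (35.7%) were called in no library, and in the young naive group 51 (13.0%). Of all peaks, 9.03% and 9.41% were called in no library of these groups. In the old conditioned group 25 enhancers (6.38%) were called in no library, and in the old naive group 4 (1.02%). The shares of all peaks were 3.03% and 1.93%. By level, fewer enhancers than peaks in general were at the lowest value listed: 0.255% against 2.37% in old conditioned, 0 against 2.06% in old naive, 1.79% against 2.39% in young conditioned and 0.255% against 1.79% in young naive mice. Since a peak must be called somewhere to be listed, absence in 1 group goes with presence in others by construction.

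**Figure D1:**
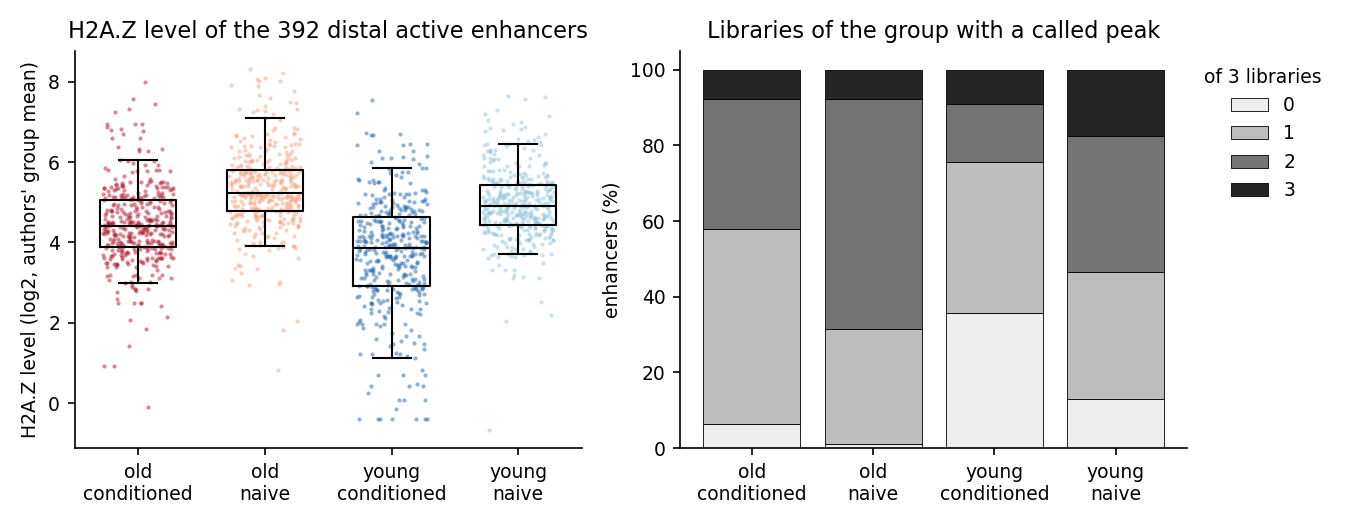
Left, the authors' log2 mean H2A.Z level of each of the 392 distal active enhancers in the 4 groups (points), with the median (line), the quartiles (box) and the 5th to 95th percentiles (whiskers). Right, the share of enhancers called as a peak in 0, 1, 2 or 3 of the 3 libraries of a group; the young conditioned group has the lowest median level, 3.86, and the largest share called in no library, 35.7%.

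Training was accompanied by lower H2A.Z at many of these enhancers in young mice and at few in old mice. At the authors' false discovery rate (FDR) of 0.05, H2A.Z fell at 4 of 392 enhancers in old conditioned mice (1.02%) and at 81 in young conditioned mice (20.7%). Over all consensus peaks the same calls made up 10.6% in old and 13.2% in young mice. No enhancer was called higher at either age, where 0.0396% of all peaks were called higher in old and 0.109% in young conditioned mice. At an authors' unadjusted p under 0.05 there were 20 enhancers in old (5.1%) and 144 in young mice (36.7%). Of all peaks, 30.1% and 26.9% were under that value. The difference between the ages was not tested, since the table holds no interaction and no value per library.

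The folds covered more enhancers than the calls. The log2 fold of conditioned over naive was negative at 314 enhancers in old mice (80.1%) and at 344 in young mice (87.8%), and at 293 in both. Over all peaks 87.3% were negative in old and 81.1% in young mice. The median fold of the enhancers was -0.68 in old and -1.05 in young mice, and that of all peaks was -0.93 and -0.57. Taken relative to the median of all peaks, the enhancers stood at 0.25 in old and at -0.48 in young mice, so in old mice the sign of their median turns with the centring. In young mice 207 enhancers (52.8%) had a fold under -1, against 26.7% of all peaks, and in old mice 122 (31.1%), against 44.0%. The 7 enhancers at the lowest level listed for the young conditioned group and the 1 at that of the young naive group have no measured fold, and without them the young median was -1.04 over 384.

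**Figure D2:**
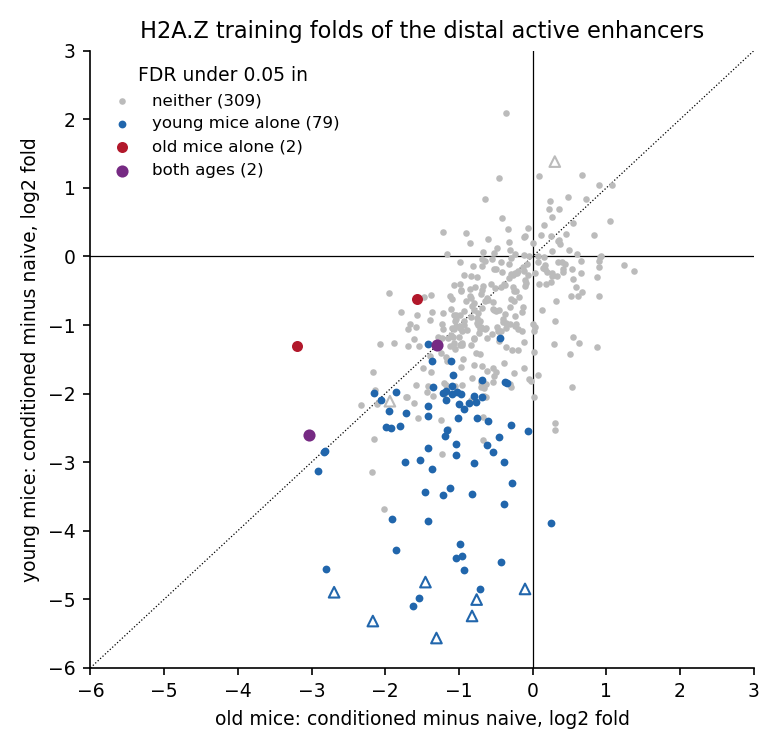
Authors' log2 fold of H2A.Z, conditioned minus naive, of the 392 distal active enhancers in old mice (x) and in young mice (y); colours give the calls at the authors' FDR under 0.05, and the dotted line marks equal folds. Enhancers called in young mice lie below -1 in young mice and all but 1 also lie below 0 in old mice; open triangles are the 9 peaks at the lowest level listed in a group, whose position is not a measured fold.

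The 81 enhancers called in young mice were also mostly negative in old mice. Their old fold was negative for 80 of the 81, with a median of -1.11, against -0.53 for the other 311 enhancers. Of the 81, 27 had an old fold above the median of all peaks. Calls at both ages were shared by 2 enhancers, 2.47% of the young calls and 50% of the old ones. The same overlap was not computed over all peaks, so these shares cannot be called high or low. Ranked over the 392 enhancers, old and young folds correlated with a Spearman rho of 0.581, and over all peaks with 0.587, where all peaks share the same libraries. Called and other enhancers had similar widths, with medians of 587 and 557 bp, and called ones lay farther from gene starts, with medians of 44.2 and 27.4 kb.

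The young calls had low H2A.Z in conditioned mice and not in naive mice. Their median level was 3.998 in old conditioned, 5.49 in old naive, 2.35 in young conditioned and 5.05 in young naive mice, against 4.47, 5.18, 4.04 and 4.82 for the others. In both naive groups the called enhancers were the higher ones, and in both conditioned groups the lower ones, which in young mice the call itself requires. Of the 81, 65 were called as a peak in no young conditioned library and 7 were at the lowest level listed there. Among enhancers called as a peak in 0, 1, 2 or 3 young conditioned libraries, 46.4%, 7.69%, 3.33% and 5.56% had lower H2A.Z. For all peaks these shares were 59.9%, 14.4%, 10.2% and 5.7%, so at a like number of libraries the enhancers' share was not the higher one. Since the call rests on low values in that group, these counts and shares describe the calls and support nothing. Split into 3 parts by the level in old naive mice, a group outside the young comparison, 19 of 131 enhancers (14.5%) were called in the lowest, 28 of 131 (21.4%) in the middle and 34 of 130 (26.2%) in the highest part. The median young folds of these parts were -0.81, -1.17 and -1.07. The split was chosen after the values were seen. A split by width gave 19.1%, 22.3% and 20.6% from narrow to wide. A split by the mean level of the 4 groups ran the other way, at 32.1%, 16.2% and 13.7% from low to high. That mean includes the young conditioned level, so its low part favours calls by construction.

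Among the enhancers, the share of young calls differed by position. Over all peaks it was 13.2%, and it was not computed by position or distance. These differences are therefore not shown to be particular to enhancers. Of intergenic enhancers 51 of 175 (29.1%) were called lower, of intronic ones 18 of 137 (13.1%) and of coding exonic ones 5 of 44 (11.4%). Just upstream or downstream of a gene 4 of 17 (23.5%) were called, and in noncoding RNA genes 2 of 14 (14.3%). In untranslated regions it was 1 of 5 (20.0%). By distance from the gene start the share was 15.4% between 1 and 5 kb, 17.4% to 20 kb, 21.2% to 100 kb and 29.8% beyond. The median young folds did not follow that order, at -1.18, -0.85, -1.04 and -1.18. The median young level was lower with distance too, at 4.17, 3.99, 3.81 and 3.46 in young conditioned mice and 5.17, 4.92, 4.89 and 4.79 in young naive mice.

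Peaks on either side of the distance condition had a wide range of folds. The 5 enhancers nearest to the limit lay 1027 to 1063 bp from the starts of Ski, Pfn1, Slc25a39, Hes6 and Auts2, with young log2 folds of 0.41, -0.47, -3.68, -0.68 and -1.29. The 5 peaks with the same marks just inside it lay 932 to 986 bp from Gm608, Maz, Kdm2a, Cldn19 and Sin3a, with -2.95, -0.31, -0.37, -0.89 and -1.24. All 93 peaks with these marks up to 1000 bp from a start had median training folds of -0.94 in old and -0.75 in young mice, and median levels of 5.44, 6.68, 5.04 and 6.00 in old conditioned, old naive, young conditioned and young naive mice.

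Among other peak classes, distal H3K4me3 peaks had the closest young median fold and primed enhancers the closest levels. The 761 primed enhancers, distal peaks with H3K4me1 alone, had median levels of 4.39, 4.94, 4.12 and 4.61, and 0.131% were called lower in old and 12.5% in young conditioned mice, with median folds of -0.30 and -0.48. The 2601 distal peaks without any of the 4 marks had median levels of 2.51, 2.58, 2.70 and 2.39, median folds of 0.26 and 0.29, and 0.192% and 1.08% called lower. The 1514 distal peaks with H3K4me3 had median folds of -1.09 and -1.02, with 5.61% and 27.3% called lower. Active promoters, 6047 peaks within 1000 bp of a start with H3K4me3 and H3K27ac, had median folds of -1.05 in old and -0.64 in young mice, with 18.6% and 16.0% called lower. The old median less the young one was 0.37 at active enhancers and -0.40 at active promoters. These comparisons of classes are descriptions of 1 table and carry no test.

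**Figure D3:**
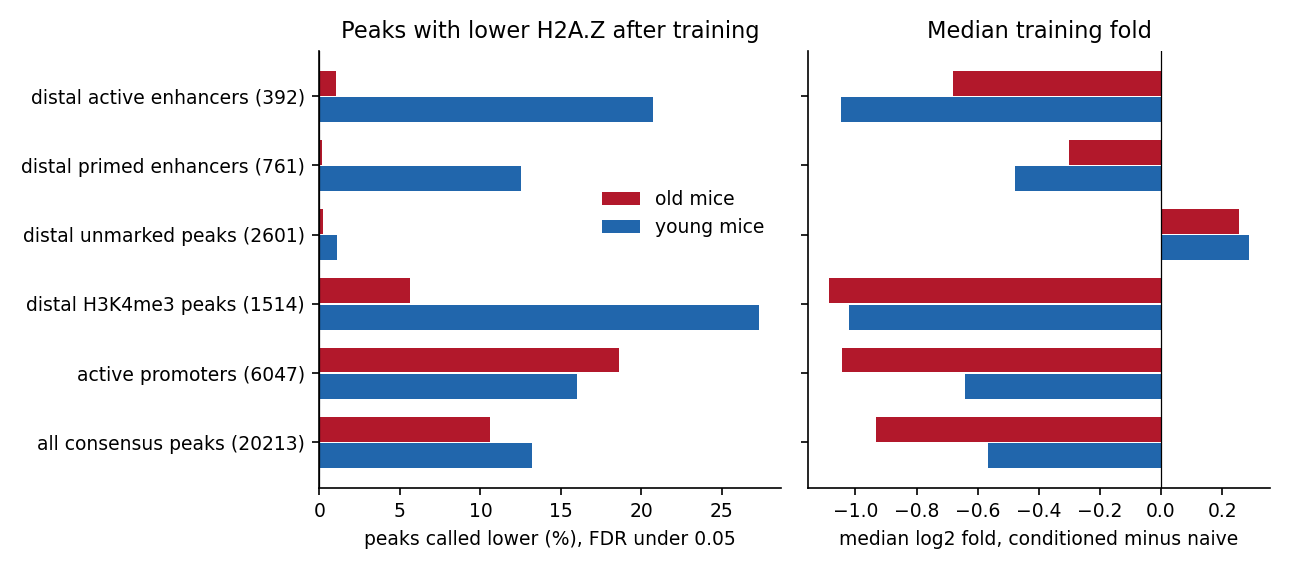
Left, percent of peaks of each class called lower in H2A.Z after training at the authors' FDR under 0.05, in old mice (red) and young mice (blue); right, the median log2 fold, conditioned minus naive; numbers of peaks stand in brackets and no error is drawn because the table has no values per library. Distal active enhancers were called in 1.02% of cases in old and 20.7% in young mice. With the median of all peaks subtracted, their old median turns from -0.68 to 0.25.

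The 4 enhancers called in old mice were those of H13, Cryba4, Cspp1 and Auts2, named by the nearest gene. The intronic enhancer of H13, a signal peptide peptidase, had levels of 2.15 in old conditioned, 5.56 in old naive, 4.15 in young conditioned and 5.46 in young naive mice, and fell by 3.20 in old mice (FDR 0.034). Old conditioned was its lowest group. The intergenic enhancer 358 kb from Cryba4, a lens crystallin gene, had levels of 2.50, 5.75, 2.50 and 5.10 in the same order of groups. It fell by 3.04 in old mice (FDR 0.0373) and by 2.60 in young mice (FDR 0.00984), and its fold of old over young was -0.12 in conditioned mice (FDR 1.0). The Cspp1 enhancer, in an intron of a gene for a centrosome protein, had levels of 6.27, 8.06, 6.07 and 6.70 and fell by 1.58 in old mice (FDR 0.0189), against a fold of -0.62 in young mice (FDR 0.53).

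The Auts2 enhancer, 1.06 kb before the listed start of a gene tied to neurodevelopment, was called at both ages and is among the 5 with the highest level. The authors' annotation places it in a 5' untranslated region, so it is distal to the listed start alone. Its levels were 6.80 in old conditioned, 8.32 in old naive, 6.28 in young conditioned and 7.57 in young naive mice. It was called as a peak in all 12 libraries and fell by 1.30 in old mice (FDR 0.0227) and by 1.29 in young mice (FDR 0.0187). The promoter peak of Auts2 had folds of -0.75 in old (FDR 0.507) and -1.74 in young mice (FDR 0.0501), neither called.

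The other enhancers with the highest levels were those of Rcor1, Arid1a, Bahcc1 and Brd2. All of these overlapped a RefSeq start window, of the same gene at Rcor1, Arid1a and Brd2 and of the noncoding RNA Gm11772 at Bahcc1. The Rcor1 enhancer, at the gene of the corepressor CoREST, had levels of 7.25, 7.92, 6.44 and 7.62 and fell by 1.19 in young mice (FDR 0.0322), against a fold of -0.45 in old mice (FDR 0.642). The Arid1a enhancer had levels of 6.95, 8.22, 6.70 and 7.65, with folds of -1.06 in old (FDR 0.146) and -0.95 in young mice (FDR 0.105). The Bahcc1 enhancer, at the gene of a BAH domain protein, had levels of 7.57, 8.03, 7.23 and 7.20 and folds of -0.25 and 0.03. The Brd2 enhancer was the widest and had levels of 7.99, 7.66, 7.54 and 7.05, so that both conditioned groups were above their naive groups. Its folds of 0.55 in old (FDR 0.393) and 0.48 in young mice (FDR 0.45) did not pass the test.

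The lowest young folds belonged to enhancers whose H2A.Z was near or at the bottom of the scale in young conditioned mice. Enhancers of Irf2bpl (a transcriptional regulator), Ttc22, Grm4 (the metabotropic glutamate receptor mGluR4) and Vrk1 (a kinase with histone H3 among its substrates) were listed at the lowest level of the young conditioned group, -0.38, so no fold is given. Their young naive levels were 5.18, 4.93, 4.86 and 4.62, and the authors' FDR was 0.000106, 0.000715, 2.86e-05 and 0.000838. Old conditioned levels were 3.15, 3.38, 3.68 and 3.86 and old naive levels 4.67, 5.76, 4.72 and 4.84, and none was called in old mice.

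Above that level, low young folds were found at Mgat5b, Phc2, Mycn and Zcchc14, chosen after their values were seen. The enhancer 75.4 kb from Mgat5b, a brain glycosyltransferase, had levels of 3.81 in old conditioned, 5.64 in old naive, 0.48 in young conditioned and 5.57 in young naive mice, and fell by 5.10 in young mice (FDR 0.00031). The Phc2 enhancer, in an intron of a Polycomb subunit gene, fell by 4.85 (FDR 0.00823), the Mycn enhancer fell by 4.58 (FDR 5.54e-05) and the Zcchc14 enhancer fell by 4.57 (FDR 0.00201). None of these 4 was called as a peak in a young conditioned library. Their old folds, -1.62, -0.71, -0.94 and -2.80, were all negative and none was called. The highest young fold, 2.09 at an exonic enhancer 98.7 kb from the Anks1 start, also chosen after its value was seen, had a p of 0.0279 and an FDR of 0.129.

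Enhancers that share a nearest gene had unlike folds. Of 336 nearest genes 299 had 1 enhancer, 26 had 2 and 11 had 3 or more. Gse1, whose protein belongs to a histone deacetylase corepressor complex, had 9, all on chromosome 8, from 153 kb before its start to 44.2 kb after it. The one nearest to the start, at -1.60 kb, had levels of 7.31 in old conditioned, 7.78 in old naive, 6.44 in young conditioned and 6.94 in young naive mice. The one at -4.22 kb had levels of 4.44, 4.95, 2.76 and 4.66, and the one at -72.1 kb had 6.31, 6.27, 6.01 and 6.29. Young folds of the 9 ran from -1.91 at -4.22 kb to 0.70 at -106 kb, and none was called in either age. The Gse1 promoter peak had folds of -0.02 in old and 0.44 in young mice.

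**Figure D4:**
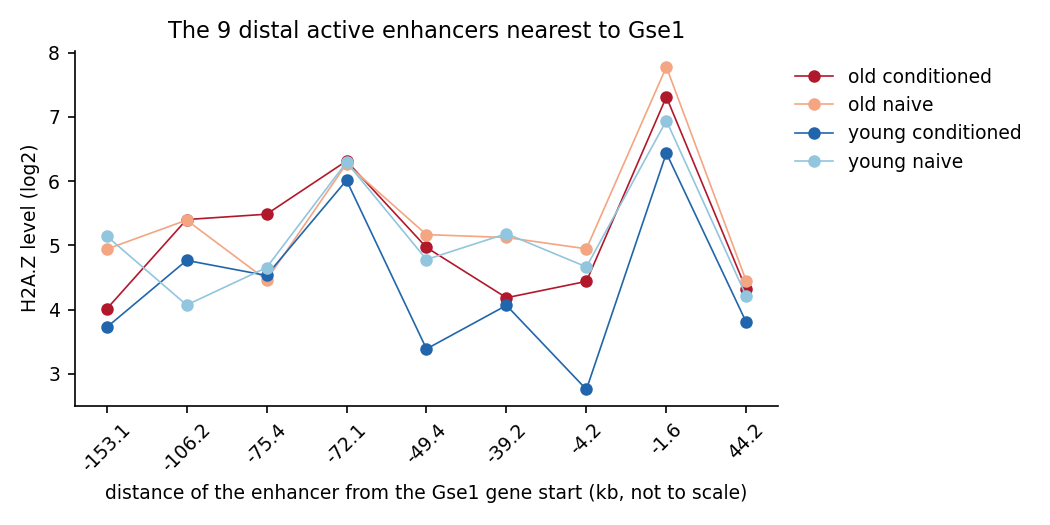
Authors' log2 mean H2A.Z level of the 9 distal active enhancers nearest to Gse1 in the 4 groups, ordered by distance from the gene start in kb (spacing not to scale; lines join the peaks of a group and no error is available). The enhancers at -1.60 and -72.1 kb are the highest in every group, and at -4.22 kb young conditioned mice have 2.76 against 4.66 in young naive mice.

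Other genes with several enhancers were mixed in the same way. Irf2bpl had 3, at 48.1, 52.6 and 60.8 kb. The first was at the lowest level in young conditioned mice, and the others had young folds of -1.06 (FDR 0.251) and -0.44 (FDR 0.56). Maml3, a coactivator of Notch signalling, had 3, of which the one 355 kb into the gene fell by 4.20 in young mice (FDR 0.000214) and those at 396 and 2.43 kb had folds of -1.88 (FDR 0.14) and -1.0 (FDR 0.0821). For Rpl14, a ribosomal protein gene, the enhancer at 31.5 kb fell by 2.00 (FDR 0.0427). It is the same peak as the Gm34323 enhancer above. Those at 48.3 and 120 kb had -1.02 (FDR 0.257) and -2.17 (FDR 0.266). Of the 3 enhancers of 8430427H17Rik 1 fell, by 1.82 (FDR 0.0236). Cstad, Zmiz1, Cxxc5 and Macrod1, which also had 3 or more, had no called enhancer at either age.

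Promoter calls were set beside the enhancer calls of the same gene. Where a gene had several promoter peaks, the one with the highest mean level was used. Of active promoters in general, 16.0% were called lower in young and 18.6% in old mice. A promoter peak was listed for the nearest gene of 318 enhancers, covering 265 genes. In young mice 67 of these enhancers were called and 8 of them (11.9%) had a called promoter, against 22 of the other 251 (8.76%). Median young folds were -1.03 at these enhancers and -0.43 at their promoters. In old mice the order was the other way, with -0.67 at the enhancers and -0.87 at the promoters, and 0 of 2 called and 36 of 316 other enhancers (11.4%) had a called promoter. The Spearman correlation between enhancer and promoter fold was 0.122 in old and 0.097 in young mice, over enhancers that share libraries.

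Age alone moved no enhancer past the authors' threshold. At FDR 0.05, 0 of 392 were called between old and young conditioned mice and 0 between old and young naive mice, where 0.0% of all consensus peaks were called in each comparison. The smallest FDR among the enhancers was 1.0 in conditioned and 0.287 in naive mice. An authors' unadjusted p under 0.05 was listed for 10 enhancers (2.55%) in conditioned and 1 (0.255%) in naive mice. Of all peaks, 0.554% and 12.1% were under that value. The median fold of old over young was 0.46 in conditioned mice, against 0.09 for all peaks, and 0.05 in naive mice, against 0.33. Relative to the median of all peaks the enhancers stood at 0.37 in conditioned and at -0.28 in naive mice, so the sign in naive mice turns with the centring. In conditioned mice 97 enhancers (24.7%) had a fold over 1, against 7.57% of all peaks, and in naive mice 6 (1.53%), against 5.04%. These folds use the same groups as the training folds and are no separate evidence.

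Enhancers near activity-regulated genes were looked at by list. Of 19 lists with 475 genes, 26 genes were nearest to 29 enhancers, which is 7.40% of the enhancers, and listed genes were nearest to 6.46% of all 7697 distal mappable peaks. Of 30 early activity-regulated genes 3 had such an enhancer, with 4 in all and none called at either age, beside 20.7% of all enhancers in young and 1.02% in old mice. A count of 0 among 4 does not set these genes apart. The enhancer 5.98 kb from Ier2, an immediate early gene, had levels of 3.20 in old conditioned, 4.79 in old naive, 3.22 in young conditioned and 4.91 in young naive mice, with folds of -1.38 (FDR 0.337) and -1.69 (FDR 0.105). Both conditioned groups were below their naive groups. Sik1, a salt-inducible kinase gene, had enhancers at 65.0 and 88.7 kb, with folds of -2.07 and -1.10 in old mice and -1.27 and -1.05 in young mice. The enhancer 4.61 kb from Arc, a postsynaptic immediate early gene, had levels of 3.61, 4.38, 3.90 and 3.93, with folds of -0.56 and -0.03. Of the later activity effectors Gpr3 and Camk1g had 1 enhancer each, with young folds of -0.96 and -0.44, neither called.

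In the 11 lists of synapse, channel and cell type genes, 5 of 14 enhancers (35.7%) were called lower in young mice and 0 in old mice, beside 20.7% and 1.02% of all 392 enhancers. So few enhancers allow no statement about these lists. Besides Grm4, they were those of Nrgn (neurogranin, a postsynaptic calmodulin-binding protein), Dlg4 (the postsynaptic scaffold PSD-95), C1qb (a complement component made by microglia) and Kdr (a VEGF receptor of endothelium). The C1qb enhancer had levels of 4.32 in old conditioned, 4.92 in old naive, 2.34 in young conditioned and 5.34 in young naive mice and fell by 3.0 in young mice (FDR 0.00181), against a fold of -0.39 in old mice (FDR 0.782). The Kdr enhancer had levels of 3.45, 3.43, 0.42 and 4.30 and fell by 3.89 (FDR 0.00372), the only young call whose old fold was positive, at 0.24. The Nrgn enhancer fell by 2.47 (FDR 0.0344) and the Dlg4 enhancer fell by 2.14 (FDR 0.0428). In these 4 the young conditioned group had the lowest level, and none was called as a peak in it. The lists with no enhancer were the glucocorticoid-responsive genes, interneuron and astrocyte markers, ion channels, and H2A.Z and its machinery.

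The remaining enhancers of listed genes were not called at either age. Those of Bcl11b, Sox10, C1ql1, Pecam1, Foxj1, Gabbr1, Ephb2, Lrrtm2, Nrxn2, Mef2a, Prkcb, Srf, Mki67, Notch1, Arntl and Nr1d1 had young folds between -2.05 at C1ql1 and 0.84 at Bcl11b. Of these genes, Mki67 and Nr1d1 had 2 enhancers each.

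RNA of the nearest genes was set beside these enhancers. All 336 genes had a count row and 308 passed the filter on low counts among 14405 tested. Their median expression was 5.49 log2 CPM (counts scaled to a common library size), against 4.54 for all tested genes. At an adjusted p of 0.05 from edgeR's quasi-likelihood test, 0 of 308 were called for training in old mice, 1 in young mice, 0 for age in conditioned mice and 0 in naive mice. Over all genes the calls made up 0.0139%, 0.0278%, 0.0347% and 0.0555% in the same order of comparisons. At an unadjusted p under 0.05 from edgeR there were 25, 26, 38 and 41, which is 8.12%, 8.44%, 12.3% and 13.3%, against 7.16%, 6.63%, 13.4% and 10.3% of all tested genes. The labels do not say that libraries came from separate animals, so these p-values measure the spread between libraries, which may be technical.

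The called gene was Sik1. Its RNA was 24.9, 18.1 and 20.0 CPM in old conditioned libraries, against 12.7, 13.1 and 10.7 CPM in old naive ones. It was 25.1, 20.1 and 24.2 CPM in young conditioned libraries, against 12.6, 13.7 and 12.8 CPM in young naive ones. No conditioned library overlapped a naive one at either age. The log2 fold change was 0.82 ± 0.131 (SE) in young mice, with an edgeR adjusted p of 0.0414, and 0.79 ± 0.133 in old mice, with an edgeR adjusted p of 0.105. DESeq2 gave Sik1 an adjusted p of 0.000364 in young and 0.00181 in old mice, and edgeR without a filter on low counts gave 0.0033 and 0.00812. With upper-quartile normalization the edgeR adjusted p was 0.0532 and 0.0957, and in fits of the 2 groups alone 0.138 and 0.111. Without young naive library 79 Sik1 passed the threshold in old mice, with an edgeR adjusted p of 0.0466, and no longer did in young mice, at 0.0519. Without young conditioned library 73 or 77, or young naive library 81 or 83, the young adjusted p from edgeR was 0.462, 0.314, 0.123 and 0.42. It was also above 0.05 without old conditioned library 65 (0.0839) and old naive libraries 67 (0.0825) and 69 (0.0603), which enter through the shared estimate of spread.

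Arc and Ier2 RNA had positive log2 fold changes at both ages that did not pass the test. Arc had 178, 176 and 134 CPM in old conditioned libraries, against 93.1, 62.3 and 60.0 CPM in old naive ones, and 165, 137 and 160 CPM in young conditioned libraries, against 136, 59.9 and 55.0 CPM in young naive ones. The old groups did not overlap, and in young mice naive library 79 lay just under the lowest conditioned library. The log2 fold change of Arc was 1.18 ± 0.256 (SE) in old mice and 0.90 ± 0.254 in young mice, with edgeR adjusted p of 0.309 and 0.73. Without young naive library 79, edgeR called Arc at both ages. Ier2 had 6.90, 5.16 and 3.96 CPM in old conditioned libraries, against 3.23, 2.57 and 1.61 CPM in old naive ones, and 5.66, 5.33 and 4.66 CPM in young conditioned libraries, against 4.03, 2.60 and 3.14 CPM in young naive ones. No conditioned library of Ier2 overlapped a naive one at its age, and its edgeR adjusted p was 0.513 in old and 0.73 in young mice.

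**Figure D5:**
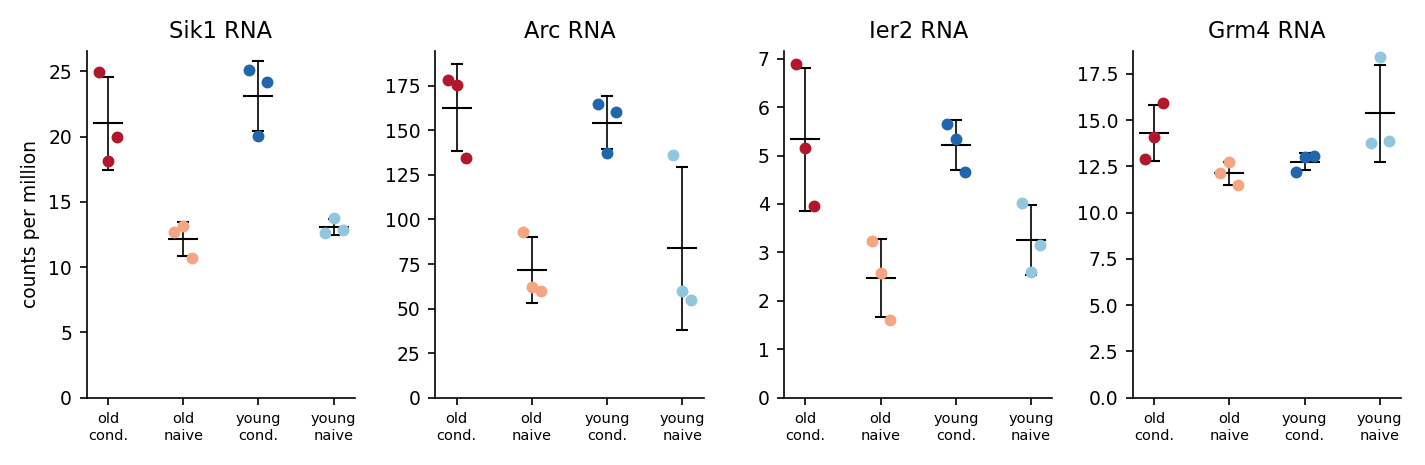
RNA of Sik1, Arc, Ier2 and Grm4, nearest genes of distal active enhancers, in CPM (linear axes from 0) for each of the 3 libraries per group (points), with the mean (line) and SD (bar). Sik1 has 18.1 to 25.1 CPM in conditioned and 10.7 to 13.7 CPM in naive libraries over both ages.

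Genes next to the enhancers with the lowest H2A.Z folds had no called change of RNA. Grm4 had 12.9, 14.1 and 15.9 CPM in old conditioned libraries, against 12.1, 12.7 and 11.5 CPM in old naive ones, and 12.2, 13.0 and 13.1 CPM in young conditioned libraries, against 13.8, 18.4 and 13.9 CPM in young naive ones. Its log2 fold changes were 0.24 ± 0.128 (SE) and -0.28 ± 0.127, with edgeR adjusted p of 0.721 and 0.745. For Mgat5b, Phc2, Mycn and Zcchc14 the young log2 fold changes of RNA were -0.10, -0.09, 0.06 and 0.05. For C1qb, Kdr, Nrgn and Dlg4 they were -0.12, -0.19, 0.13 and -0.02. None of these 8 was called in either age.

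Over the 73 tested genes next to enhancers called in young mice, the median young RNA log2 fold change was -0.03 and 37.0% were positive. Over the 235 next to other enhancers it was -0.04 with 36.2% positive, and over all tested genes -0.01 with 48.4%. In old mice the 308 genes had a median of 0.03 with 59.4% positive, against 0.00 and 49.4% of all tested genes. The Spearman correlation across genes between the H2A.Z fold and the RNA fold change was -0.026 for training in old and -0.125 in young mice, 0.096 for age in conditioned and 0.054 in naive mice, over 308 genes that are not independent. Between H2A.Z level and mean expression it was 0.004. RNA libraries held 9410843 to 13350561 counts. Choroid plexus markers varied between libraries, with sums of 249 to 412 CPM in old conditioned, 433 to 2964 CPM in old naive, 250 to 3552 CPM in young conditioned and 495 to 4771 CPM in young naive libraries, and their part in these values was not tested. Sums of pyramidal and granule neuron markers were 9148 to 9968, 9347 to 10010, 8429 to 9401 and 8238 to 8663 CPM, so the labelled tissue carried its neuronal markers in every library. These sums did not overlap between the naive ages. Oligodendrocyte marker sums were 3278 to 3620, 3793 to 4774, 3462 to 5153 and 3629 to 6157 CPM. Microglia marker sums were 522.5 to 564.4, 551.1 to 568.8, 451.0 to 463.6 and 434.0 to 492.0 CPM. Interneuron marker sums overlapped between all groups. The part of such differences was not tested either.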

How the data were processed

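RNA and H2A.Z were measured in 12 libraries each. The authors deposited whole-number RNA counts per gene and library, unnormalized. The H2A.Z table deposited by the authors is on mm10 and gives log2 levels per group and log2 folds between groups, the authors' p-values and FDR, library calls and overlaps with marks. How its values were scaled is not given in the labels or the table. T in its group names was taken to mean conditioned, the group left once N was naive. The sign of each deposited fold was turned round, so that a positive value means more H2A.Z in conditioned or in old mice. The submitters' processing notes name DiffBind 1.12.2 and edgeR 3.8.6, MACS2 2.0.10, HTSeq 0.6.1p2, Bowtie2 2.2.1 and TopHat, with no roles.

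RNA counts were fitted with edgeR 4.0.16 (TMM, filterByExpr, quasi-likelihood, 1 fit of the 4 groups) in R 4.3.3, with Benjamini-Hochberg adjustment over all tested genes. The step was tested on simulated data. DESeq2 1.42.0 was an alternative. RefSeq start windows were matched by coordinates: 88.8% of 10460 gene starts of the peak table lay within 50 bp of a window of that symbol.

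Named peaks are, per comparison, the 5 highest and 5 lowest folds past FDR 0.05, the 5 highest levels, up to 4 per gene list, the 5 genes with most peaks with their ties, and fixed activity genes; exceptions are named as chosen after their values were seen. Members and lists were chosen with earlier results of these data known. Some named items are not reported here. The input libraries were not used here.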

Additional observations from a re-analysis of the deposited data

Results flagged for a closer look

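Grm4 RNA had training effects of opposite direction at the 2 ages, with each conditioned library above each naive library in old mice and below each in young mice. The old training effect exceeded the young one by 0.52 on the log2 scale, with an edgeR p of 0.0113 and an edgeR adjusted p of 0.68, so this difference did not pass the test. Among 50 named genes it was the only one with such a pattern. Young naive library 81, at 18.4 CPM, stood above young naive libraries 79 and 83, at 13.8 and 13.9 CPM. Without it the young log2 fold change of Grm4 was -0.12, against -0.28 with it. Groups of 3 libraries were not put to the formal outlier check.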

How the results depend on the processing

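No paired analysis was possible because the RNA libraries compared share no title numbers and the H2A.Z table holds no values per library. Enhancers called lower in old mice, 4 as reported, were 0 at an FDR of 0.01, 7 at 0.1, 2 beyond 5000 bp, 1 of 199 with peak and mark regions nested, and 2 of 41 called in all 3 libraries of a group. Those in young mice, 81 as reported, were 34 at 0.01 and 44 of 199 with nested regions. Another set, also of 81, holds the enhancers called as a peak in all 3 libraries of a young group, and 22 of these had lower H2A.Z. In that set 69 entered through young naive and 36 through young conditioned libraries. It thus favours high naive values by construction and is no separate check. Less the median of all peaks, the median folds reversed to 0.25 for training in old mice and to -0.28 for age in naive mice, and the young training median was -0.48. It was -1.15 with nested regions, and the median for age in conditioned mice was 0.22 among 44 enhancers called in all 3 libraries. Leaving out enhancers over a RefSeq start window, added after seeing the data, changed none of these calls by over 1.5 times.

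RNA calls among nearest genes for training in old mice, 0 as reported, were 2 without a filter on low counts (Arc and Sik1). They were 1 in a fit of the 2 groups alone (Arc), 1 with DESeq2 (Sik1) and 0 to 2 over fits without 1 library. In young mice, 1 as reported, they were 0 with upper-quartile normalization and 0 in the fit of the 2 groups alone, and 0 to 1 without 1 library. For age in conditioned mice DESeq2 called 5 (Agap3, Arhgef17, Git1, Gpr37l1 and Osbpl8), and for age in naive mice 1 (Mki67) was called without a filter. The causes were not tested. H2A.Z depth per library is unknown here, so precision at enhancers near the lowest level cannot be given.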
